A study of Mus musculus with 40 samples.

Results

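The RNA of 10 genes was followed in mouse oocytes and zygotes: those of the oocyte linker histone H1f8, the linker histone H1f0, the histone variants H3.3 (H3f3a, H3f3b) and H2A.Z (H2az1, H2az2), the chaperones Hira, Cabin1 and Npm2, and the histone mRNA binding protein Slbp. They were taken by name from 8 deposited tables, which together list 11323 genes. The 5 cell groups were oocytes matured in vitro without their cumulus cells (IVM), cumulus-oocyte complexes matured in vitro (COC), oocytes matured in vivo (IVO), pronuclear zygotes obtained by maturation and fertilization in vitro (IMZ), and pronuclear zygotes from in vivo maturation and fertilization (IVZ). Each was sequenced as total RNA (T) and as RNA from polysomes, the fraction loaded with ribosomes (P), with 4 libraries in each of the 10 sets and 40 in all. The labels state neither strain, age nor hormone treatment, nor whether the 4 libraries of a set were collected separately, so that the p-values rest on differences among these libraries that may be technical. The series asks how in vitro maturation changes the choice of stored maternal transcripts for translation. Levels are RPKM, reads scaled to gene length and to the mapped reads of the library, and can be compared between genes as far as the lengths hold. For H3f3a, H3f3b, H2az1, Slbp, Hira and Cabin1 the gene length behind the RPKM could not be recovered from the values, so that ranks and the ratios of H3f3b to H3f3a and of H2az2 to H2az1 rest on unknown lengths, while comparisons of a gene or a ratio between libraries do not.

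Linker histones bind the DNA where it enters and leaves the nucleosome, and the egg carries its own form, H1f8, which also coats the sperm chromatin after fertilization. H3.3 and H2A.Z are built into chromatin outside of DNA replication: the HIRA complex, with Cabin1 among its subunits, deposits H3.3, also in the male pronucleus, while Npm2 (nucleoplasmin) helps to organize chromatin in the egg and early embryo. Slbp binds the stem-loop that ends the mRNAs of the replication-dependent histones, which carry no poly(A) tail. A growing oocyte stores its mRNAs and then matures without new transcription, so that the timing of translation is set largely by signals near the 3′ end.

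The total RNA libraries held 46620000 to 63220000 reads and the polysomal ones 3145000 to 38930000, as recovered from the steps between the lowest RPKM values. All 8 oocyte markers checked (Zp1, Zp2, Zp3, Gdf9, Bmp15, Figla, Ooep, Nlrp5) were listed in every group. Of 19 cumulus cell markers 1 to 4 were listed, with summed levels of 4.52 to 16.4 RPKM over all libraries. In total RNA of oocytes the sums were 14.9 to 16.4 RPKM in COC, 14.9 to 15.8 in IVO and 12.3 to 16.1 in IVM. These sums cover different genes: Cyp19a1, Grem1, Kitl and Nr5a2 in COC, the same without Kitl in IVO and without Grem1 in IVM. In polysomal RNA Nr5a2 alone was listed. Among the total RNA oocyte libraries, IVO replicates 1 and 3, IVM replicate 2 and COC replicate 3 stood apart together on the leading component of within-group differences (60% of that variance), and IVM_P replicate 1 and IVZ_P replicate 1, which the file headers mark as excluded by the authors, stood apart among the polysomal ones. They were kept. Calls of the 10 genes that changed without them are given beside the results for some genes. Larger changes in the count of genes called are given in the last section. IVO replicates 1 and 3 had loadings of -0.36 and -0.39 on that component. IVO replicates 2 and 4 lay about as far the other way (0.39 and 0.35). Values were centred within each group, so the component does not tell which IVO pair is unusual. The pair left out together was replicates 1 and 3, on the side of IVM replicate 2 and COC replicate 3.

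The 3′ ends of the 10 transcripts were read from the GENCODE M21 annotation of GRCm38, because maternal mRNAs with a cytoplasmic polyadenylation element (CPE) near the poly(A) signal can be activated during maturation. The letters TTTTAT or TTTTAA were searched on the transcript strand in the last 100 bases, allowing overlap with the poly(A) signals AATAAA and ATTAAA. A CPE-type motif was found in 4 of the 10 genes, H1f8, H1f0, H3f3b and H2az2, and in 31.0% of 10514 genes with a 3′ UTR of at least 100 bases. A poly(A) signal was found in all 10 genes and in 81.1% of the 10514. H1f0 held 2 such motifs, and for it the one nearer the poly(A) signal is shown. The sites are printed 5′ to 3′ in the transcript's sense, with the CPE-type motif and, where it falls within the stretch, the poly(A) signal in capitals, since these genes did not behave alike on polysomes.
H1f8 (chromosome 6): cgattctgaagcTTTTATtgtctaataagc
H1f0 (chromosome 15): tgtaaTTTTAAaactttaaAATAAAactgg
H3f3b (chromosome 11): gaatatttgaaaTTTTAAgtttgctgtttt
H2az2 (chromosome 11): tttgaagaaataTTTTATtatggaagttct
The motif of H1f8 began 63 bases before the transcript's end and that of H2az2 61 bases before it, the other 2 at 36 (H1f0) and 85 bases (H3f3b). No such letters were in the windows of H3f3a (chromosome 1), H2az1 (chromosome 3), Slbp (chromosome 5), Npm2 (chromosome 14), Hira (chromosome 16) or Cabin1 (chromosome 10).

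The 2 H3.3 genes encode the same protein through different bases, and the 2 H2A.Z genes nearly the same one, so their start is shown with the bases that differ within each pair in capitals (coding bases 1 to 90).
H3f3a: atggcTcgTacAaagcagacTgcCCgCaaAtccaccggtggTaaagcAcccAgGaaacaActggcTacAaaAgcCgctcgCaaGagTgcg
H3f3b: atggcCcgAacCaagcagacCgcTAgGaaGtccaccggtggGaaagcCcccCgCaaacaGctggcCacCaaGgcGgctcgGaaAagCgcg
H2az1: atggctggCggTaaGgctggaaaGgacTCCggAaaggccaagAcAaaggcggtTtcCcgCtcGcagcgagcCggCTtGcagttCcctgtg
H2az2: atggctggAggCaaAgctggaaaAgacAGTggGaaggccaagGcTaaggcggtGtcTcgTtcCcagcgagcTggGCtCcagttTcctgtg
H3f3a and H3f3b differed at 95 of 411 coding bases (76.9% identity), 81 of them at the last position of the codon. H2az1 and H2az2 differed at 81 of 387 (79.1% identity), 70 of them at that position. Of all 50-base stretches of the transcript, 14.9% of H3f3a were also found in 38 other annotated genes, 33.2% of H2az1 in 4, 10.6% of H3f3b in 3 and 64.4% of Hira in 1. None of those other genes is listed in the tables, and the treatment of shared reads in the authors' counting is unknown here, so the levels of these 4 genes are uncertain to that extent.

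H1f8, Npm2 and Slbp were among the highest genes of the oocyte, and Hira and H2az1 were low. In IVO total RNA, mean H1f8 ranked 3 of 11040 genes, Npm2 10 of 11040, Slbp 49 of 11040 and H3f3b 238 of 11040. H3f3a stood at rank 614 of 11040, H1f0 at 1559 of 11040, Cabin1 at 2227 of 11040 and H2az2 at 3629 of 11040. The lowest were H2az1 at 5423 of 11040 and Hira at 6760 of 11040. Their identifiers in the tables are ENSMUSG00000042279 for H1f8, ENSMUSG00000096210 for H1f0, ENSMUSG00000060743 for H3f3a, ENSMUSG00000016559 for H3f3b, ENSMUSG00000037894 for H2az1, ENSMUSG00000041126 for H2az2, ENSMUSG00000004642 for Slbp, ENSMUSG00000047911 for Npm2, ENSMUSG00000022702 for Hira and ENSMUSG00000020196 for Cabin1. The tables list a gene only where it reached 0.2 RPKM in every one of their 8 libraries. All 10 genes were listed in the 4 total RNA tables, whereas H2az1 was not listed in 3 of the 4 polysomal tables and Hira not in 2.

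**Figure D1:**
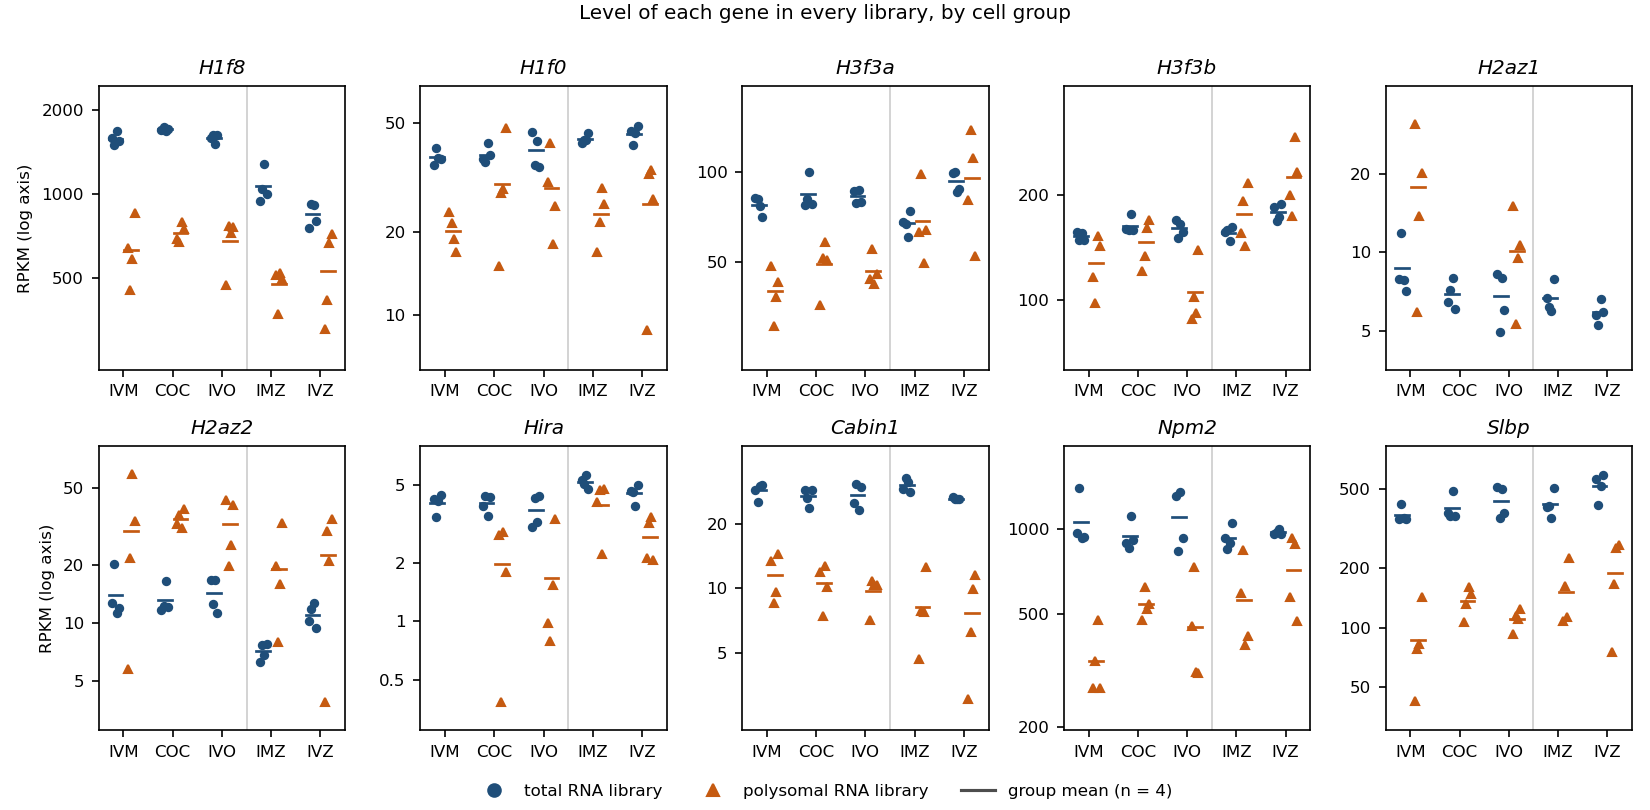
RPKM (log axis) of the 10 genes in each of the 40 libraries, by cell group: circles are total RNA, triangles polysomal RNA, bars the mean of 4. H1f8 total RNA sits between 1499 and 1737 RPKM in oocytes and between 756 and 1278 RPKM in zygotes, and H2az2 is the gene whose polysomal means lie above the total RNA means in all 5 cell groups.

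Between oocytes matured in vitro and in vivo no level of these genes was called different, and in total RNA of zygotes H3f3a and H2az2 were lower after maturation and fertilization in vitro. Differences were tested with limma on log2(RPKM + 1), with p-values adjusted by Benjamini-Hochberg over all genes of the comparison and called under 0.05. On this scale the change of low genes is understated. In total RNA of oocytes none of the 10 genes was called for IVM against IVO (0.509% of all genes called), COC against IVO (0.00911%) or IVM against COC (0.0448%). At an unadjusted p under 0.05, too, none of the 10 passed in these 3 comparisons (10.9%, 7.08% and 5.65% of all genes). None passed by the p-values in the authors' deposited tables after adjustment, by which 104, 28 and 34 genes in all were called. In total RNA of zygotes 2 of the 10 genes, H3f3a and H2az2, were lower in IMZ than in IVZ, against 1.66% of all genes called in either direction and 1.15% called lower, and 6 of the 10 had an unadjusted p under 0.05 (18.9% of all genes). In polysomal RNA 0 of 9 (IVM against IVO), 0 of 9 (COC against IVO), 0 of 8 (IVM against COC) and 0 of 9 (IMZ against IVZ) were called, where 0% of all genes were in these limma fits. By the authors' p-values after adjustment 12, 25, 0 and 163 genes in all were called in the same order, and none of the 10. At an unadjusted p under 0.05 in the limma fits the only ones of the 10 were Slbp and Npm2 in IVM_P against COC_P (4.44% of all genes). The spread of the polysomal libraries was wide, and p-values above the threshold do not show that levels were equal.

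H1f8 RNA fell from oocyte to zygote in all 3 comparisons. Its total RNA levels were 1589.9, 1499, 1677 and 1545 RPKM in IVM, 1698, 1737, 1684 and 1704 in COC, and 1581, 1623, 1513 and 1630.2 in IVO. In zygotes they were 947, 1040.2, 1278 and 999 RPKM in IMZ and 756, 917, 914 and 803 in IVZ. Every oocyte library was above every zygote library, and every IMZ library above every IVZ library. The log2 fold change was -0.91 ± 0.12 (SE; adjusted p = 0.000391) from IVO to IVZ, -0.57 ± 0.11 (adjusted p = 0.00303) from IVM to IMZ, and -0.69 ± 0.10 (adjusted p = 0.000422) from COC to IMZ. With any 1 library left out it was between -0.95 and -0.52 over these 3 comparisons and remained called. The mean of 1066 ± 146 RPKM in IMZ against 847 ± 80.7 in IVZ (SD, n = 4 each) did not pass, with a log2 fold change of 0.33 ± 0.12 (adjusted p = 0.172). It did when libraries were weighted by their quality (array weights, 0.39, adjusted p = 0.0337). The smaller fall in vitro than in vivo was not called. The difference between the IVM to IMZ and the IVO to IVZ change was 0.34 ± 0.15 (adjusted p = 0.551), and that for COC was 0.22 ± 0.14 (adjusted p = 0.657). In bulk RNA, fewer cells of a type and less RNA per cell cannot be told apart, and all levels are relative to the other RNA of the library.

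The second linker histone, H1f0, known as the variant of differentiated cells, was far lower and took the opposite course in the in vitro comparisons. Its total RNA means were 37.5 ± 2.21 RPKM in IVM, 38.4 ± 2.71 in COC and 39.7 ± 5.85 in IVO, against 43.7 ± 1.67 in IMZ and 45.7 ± 3.04 in IVZ (SD, n = 4 each). It was higher in IMZ than in IVM, by 0.22 ± 0.063 (adjusted p = 0.0222) on the log2 scale, and than in COC, by 0.19 ± 0.062 (adjusted p = 0.037). The difference of IVZ from IVO, 0.21 ± 0.11 (adjusted p = 0.238), was called without the 2 IVO libraries that stand apart (0.38, adjusted p = 0.0109) and with array weights (0.29, adjusted p = 0.0477). Those 2 libraries held the highest H1f0 of IVO, and the opposite IVO pair was not left out. Both in vitro calls are close to the threshold: leaving out 1 library lost the first in 5 of 8 cases and the second in 7 of 8. Both were also lost when replicate numbers were fitted as a block. The ratio of H1f8 to H1f0 within a library was 40.7 ± 6.98 in IVO and 18.7 ± 2.84 in IVZ (SD, n = 4), and 24.4 ± 3.57 in IMZ.

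**Figure D2:**
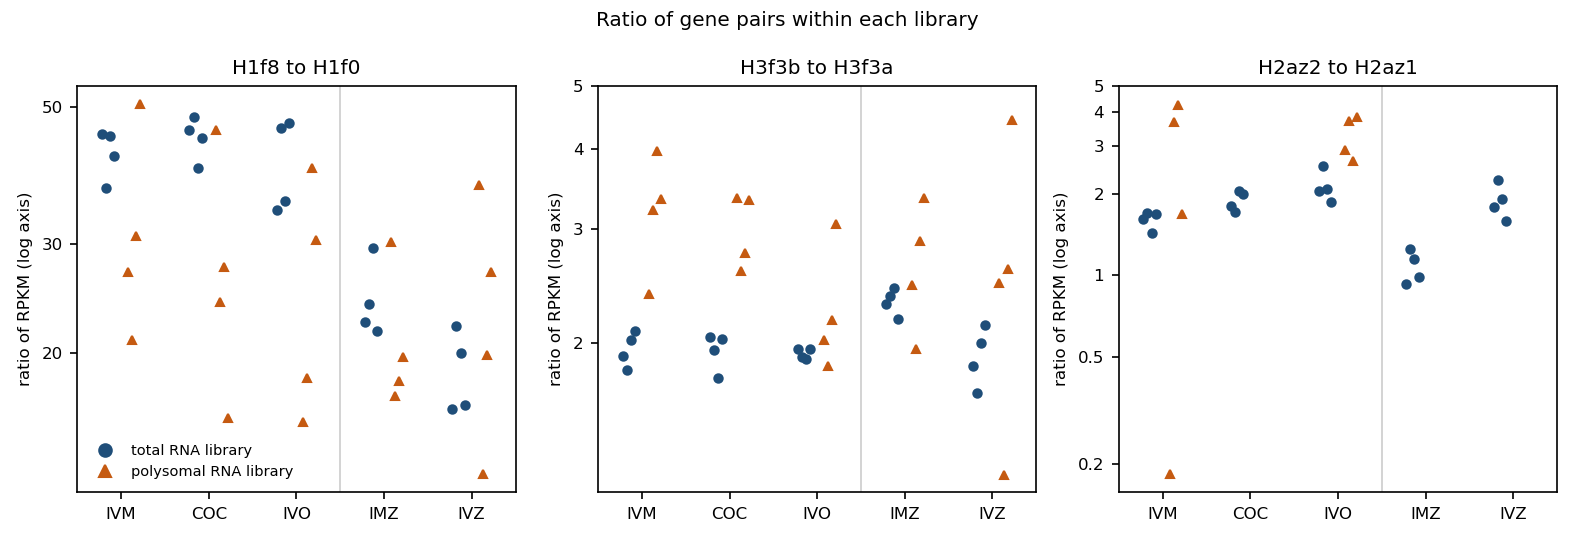
Ratio of RPKM (log axis) of H1f8 to H1f0, H3f3b to H3f3a and H2az2 to H2az1 in each library, by cell group, for total (circles) and polysomal RNA (triangles). The H2az2 to H2az1 ratio of total RNA lies at 0.931 to 1.25 in IMZ and at 1.43 to 2.53 in the other 4 cell groups; H2az1 is listed with polysomal values for IVM and IVO only.

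On polysomes H1f8 was lower than in total RNA in all 5 cell groups, and H1f0 in IVM and IMZ. The polysomal H1f8 levels were 640.3, 454, 584 and 852 RPKM in IVM, 693, 674, 792 and 751 in COC and 471, 767, 723 and 759 in IVO, and 511, 371, 523 and 498 in IMZ and 329, 416, 665 and 717 in IVZ. No polysomal library reached the total RNA level of its cell group. The polysomal mean was 40.1% of the total mean in IVM, 42.7% in COC, 42.9% in IVO, 44.6% in IMZ and 62.8% in IVZ, and H1f8 was called lower in all 5. The call in IVZ, -0.74 ± 0.25 (adjusted p = 0.04), was lost without IVZ_P replicate 1 (-0.53, adjusted p = 0.0699), in 6 of 8 cases with 1 library left out and with scaling by the median of ratios (-0.34, adjusted p = 0.263). These levels rest on 1244 to 37045 reads per polysomal library. For H1f0 the polysomal mean was 53.2% to 78% of the total mean and it was called lower in IVM and IMZ, 2 calls lost with scaling by the median of ratios, which turned the sign in IVO (0.13). Its polysomal level in IVZ replicate 1 was 8.82 RPKM, from 57 reads, against 26.5 to 33.6 RPKM in the other 3 IVZ libraries. Without IVZ_P replicate 1 H1f0 was called lower on polysomes in IVZ as well. From oocyte to zygote no polysomal change of H1f8 or H1f0 was called; that of H1f8 was -0.40 ± 0.33 (adjusted p = 0.635) in vivo, -0.39 ± 0.27 (adjusted p = 0.646) from IVM and -0.62 ± 0.20 (adjusted p = 0.0949) from COC.

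Of the H3.3 genes, H3f3b was the higher in all 40 libraries, and H3f3a was lower in zygotes made in vitro than in zygotes formed in vivo. H3f3a total RNA was 68.0, 67.0, 60.6 and 74.2 RPKM in IMZ and 99.9, 101, 86.2 and 88.1 in IVZ, and all 4 IMZ libraries were below all 4 IVZ libraries. The log2 fold change was -0.47 ± 0.079 (adjusted p = 0.0211). Leaving out 1 library gave -0.51 to -0.42 and lost the call in 5 of 8 cases, with adjusted p up to 0.0786. H3f3b differed less, at 156 ± 6.13 in IMZ against 178 ± 9.29 RPKM in IVZ (SD, n = 4 each), -0.19 ± 0.064 (adjusted p = 0.151). With array weights H3f3b was called lower in IMZ (-0.23, adjusted p = 0.023). Of the 10 genes 5 had groups that did not overlap here (H1f8, H3f3a, H3f3b, H2az2, Cabin1), as did 11% of all genes.

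The H3f3a means of oocytes lay between those of the zygotes. Its total RNA level was 81.9, 81.5, 77.2 and 70.9 RPKM in IVM, 78.0, 81.4, 100.1 and 78.5 in COC and 86.8, 78.9, 87.4 and 79.9 in IVO. IMZ was lower than COC, with a log2 fold change of -0.32 ± 0.09 (adjusted p = 0.0187); against IVM the change was -0.21 ± 0.078 (adjusted p = 0.0636), and from IVO to IVZ it was 0.17 ± 0.081 (adjusted p = 0.213). The call against COC is lost with scaling by the median of ratios (-0.24, adjusted p = 0.0792), without IMZ_T replicate 3, and when replicate numbers are fitted as a block. With array weights IMZ was called lower than IVM (-0.20, adjusted p = 0.026). The changes in vitro and in vivo differed by -0.37 ± 0.11 (adjusted p = 0.318) for IVM and by -0.48 ± 0.12 (adjusted p = 0.169) for COC, so a difference between them was not called. H3f3b was at 147 to 188 RPKM in all 20 total RNA libraries and was not called for any stage comparison of total RNA. Its ratio to H3f3a in total RNA was 2.32 ± 0.107 in IMZ and 1.91 ± 0.2 in IVZ, against 1.93 ± 0.0348 to 1.96 ± 0.119 in the 3 oocyte groups (SD, n = 4 each).

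H3f3a was lower on polysomes than in total RNA in the 3 oocyte groups and H3f3b in IVO, with no such call in zygotes. The polysomal H3f3a mean was 51.6% of the total mean in IVM, 58.3% in COC and 56.3% in IVO, each called lower, and 102% in IMZ and 103% in IVZ. For H3f3b it was 83.8%, 89.6% and 65.9% in the oocyte groups, called lower in IVO, and 113% in IMZ and 126% in IVZ. With scaling by the median of ratios, which takes out the shift of the median gene, none of these oocyte groups was called lower, and H3f3a in IMZ (0.55, adjusted p = 0.0256) and H3f3b in IMZ (0.72, adjusted p = 0.000614) and IVZ (0.70, adjusted p = 0.018) were called higher. Without the 2 IVO total RNA libraries that stand apart, the IVO calls of H3f3a (adjusted p = 0.0503) and H3f3b (adjusted p = 0.156) were lost. The polysomal levels of H3f3b were 88.8, 102, 92.3 and 139.5 RPKM in IVO and 199.98, 174, 292 and 233 in IVZ, with every IVZ library above every IVO library (as for 7.64% of the genes tested). The log2 fold change of 1.08 ± 0.30 did not pass (adjusted p = 0.151) but did when libraries were weighted by their quality (1.24, adjusted p = 0.0196). Polysomal H3f3a was 43.9, 55.5, 42.4 and 45.6 RPKM in IVO and 80.7, 139, 112 and 52.5 in IVZ, and the groups overlapped through IVZ replicate 4. Whether the polysomal minus total difference itself changed from oocyte to zygote was tested after these values were seen. For H3f3a the change of that difference was 0.77 ± 0.34 (adjusted p = 0.41) in vivo, 0.95 ± 0.28 (adjusted p = 0.533) from IVM and 0.77 ± 0.27 (adjusted p = 0.258) from COC, and for H3f3b in vivo it was 0.93 ± 0.27 (adjusted p = 0.236). None of the 10 genes was called in these 3 tests, where 0.0833%, 0% and 0.117% of all genes were; at an unadjusted p under 0.05 there were 3 in vivo (H3f3a, H3f3b, Npm2), 2 from IVM (H3f3a, Npm2) and 1 from COC (H3f3a), beside 10.9%, 6.62% and 10.8% of all genes.

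Hira and Cabin1, 2 subunits of the complex that deposits H3.3, were less abundant than the H3.3 genes. Hira total RNA was 4.24, 3.42, 4.14 and 4.46 RPKM in IVM, 3.93, 4.40, 3.47 and 4.37 in COC, 3.05, 4.30, 3.24 and 4.41 in IVO, 5.34, 5.09, 5.68 and 4.80 in IMZ and 4.68, 4.62, 3.92 and 5.02 in IVZ. All 4 IMZ libraries were above all IVM and COC libraries. Hira was higher in IMZ than in IVM by 0.30 ± 0.084 (adjusted p = 0.0185) and than in COC by 0.31 ± 0.082 (adjusted p = 0.0134), while IVZ against IVO gave 0.24 ± 0.12 (adjusted p = 0.224). The first call was lost without IMZ_T replicate 3 (0.27, adjusted p = 0.0513), and the second when replicate numbers were fitted as a block. Polysomal Hira was 2.79, 0.386, 2.87 and 1.80 RPKM in COC, 0.98, 0.793, 1.54 and 3.37 in IVO, 4.11, 4.71, 2.23 and 4.78 in IMZ and 2.12, 3.20, 3.45 and 2.07 in IVZ. COC replicate 2 was the lowest of these listed values. For IVM no polysomal Hira is listed, so it did not reach 0.2 RPKM in every IVM library and was lower there in at least some. Hira was called lower on polysomes in COC (-0.87 ± 0.31, adjusted p = 0.0266) and IVO (-0.91 ± 0.28, adjusted p = 0.0164), and both calls were lost with scaling by the median of ratios. Without IVZ_P replicate 1 Hira was called lower on polysomes in IVZ as well.

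Cabin1 was at 23.4 to 33.0 RPKM in all total RNA libraries and was not called between any maturation or stage pair in the values as deposited. It was called higher in IMZ than in COC with scaling by the median of ratios (0.24, adjusted p = 0.0205) and than in IVZ with array weights (0.22, adjusted p = 0.0284). On polysomes it was at 13.4, 8.52, 9.66 and 14.4 RPKM in IVM, 11.9, 7.46, 12.7 and 10.1 in COC, 7.10, 10.9, 10.4 and 10.4 in IVO, 4.65, 7.85, 7.79 and 12.6 in IMZ and 3.05, 6.26, 9.92 and 11.52 in IVZ. Each of these 20 libraries lay below the lowest total RNA library. Cabin1 was called lower on polysomes in all 5 cell groups, with log2 fold changes from -1.83 ± 0.25 in IMZ to -1.27 ± 0.22 in IVM. These calls were kept in every alternative tried. IVZ_P replicate 1 had the lowest Cabin1 value, 3.05 RPKM.

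H2az2 was richer on polysomes than in total RNA in COC, IVO and IMZ, the one gene of the 10 called higher there. H2az2 total RNA was 12.7, 20.1, 11.2 and 11.9 RPKM in IVM, 11.6, 12.3, 16.4 and 12.1 in COC, 16.8, 12.5, 16.7 and 11.2 in IVO, 6.24, 7.71, 6.85 and 7.80 in IMZ and 10.3, 11.9, 12.6 and 9.39 in IVZ. Its polysomal levels were 5.73, 21.7, 58.8 and 33.9 RPKM in IVM, 32.6, 36.1, 31.2 and 38.7 in COC, 43.5, 19.8, 25.2 and 41.0 in IVO, 19.7, 7.98, 15.8 and 32.8 in IMZ and 3.89, 30.03, 20.9 and 34.6 in IVZ. The polysomal libraries were all above the total RNA ones in COC, IVO and IMZ; in IVM and IVZ the exception was replicate 1. H2az2 was higher on polysomes by 1.35 ± 0.16 (adjusted p = 4.26e-05) in COC, 1.07 ± 0.28 (adjusted p = 0.00639) in IVO and 1.15 ± 0.33 (adjusted p = 0.0108) in IMZ. In IVM (0.70 ± 0.58) and IVZ (0.63 ± 0.54) it was not called with all libraries. Without the replicate 1 excluded by the authors it was, at 1.31 (adjusted p = 0.00679) in IVM and 1.27 (adjusted p = 0.00131) in IVZ; those libraries hold 60 and 20 reads of the gene. The share of all genes called higher on polysomes was 23.4% in COC, 13.9% in IVO and 15.1% in IMZ.

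In total RNA H2az2 fell on the way to the in vitro zygote. All 4 IMZ libraries were below every library of the other 4 cell groups. The IMZ libraries held 579 to 762 reads of the gene each. The log2 fold change was -0.85 ± 0.16 (adjusted p = 0.00208) from IVM and -0.78 ± 0.11 (adjusted p = 0.000267) from COC, and with 1 library left out it remained called, between -0.94 and -0.67. From IVO to IVZ the change was -0.34 ± 0.14 (adjusted p = 0.146). IMZ was also lower than IVZ, at -0.56 ± 0.10 (adjusted p = 0.0256), a call that was lost in 5 of 8 cases when 1 library was left out (-0.63 to -0.50). That call was also lost when replicate numbers were fitted as a block. The in vitro and in vivo changes differed by -0.51 ± 0.23 (adjusted p = 0.555) for IVM and -0.45 ± 0.19 (adjusted p = 0.453) for COC, which was not called.

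H2az1, the other H2A.Z gene, was not called in any comparison of all libraries as deposited. Its total RNA means were 8.67 ± 2.15 RPKM in IVM, 6.92 ± 0.859 in COC, 6.80 ± 1.57 in IVO, 6.69 ± 0.872 in IMZ and 5.89 ± 0.563 in IVZ (SD, n = 4 each). Without the 3 libraries of IVM and IVO that stand apart it was higher in IVM than in IVO (0.41, adjusted p = 0.0365), and with array weights lower in IMZ than in IVM (-0.23, adjusted p = 0.0499). The 3 libraries left out held the highest H2az1 of their groups, and the opposite IVO pair was not left out. The H2az2 to H2az1 ratio was 1.08 ± 0.146 in IMZ and 1.88 ± 0.280 in IVZ. On polysomes H2az1 was 31.1, 5.89, 13.8 and 20.2 RPKM in IVM and 15.05, 5.32, 9.53 and 10.7 in IVO. Replicate 2 lay below the total RNA mean in both groups, and the polysomal means of 17.8 ± 10.6 and 10.1 ± 3.997 RPKM (SD, n = 4) lay above it. In COC some polysomal library was under 0.2 RPKM for H2az1, as was some library of IMZ or IVZ. Polysomal values are therefore known only for the groups that passed this filter. The log2 fold changes, polysomal minus total, were 0.77 ± 0.43 (adjusted p = 0.156) in IVM and 0.46 ± 0.30 (adjusted p = 0.206) in IVO. With scaling by the median of ratios both were called higher (1.23, adjusted p = 0.0391 in IVM and 1.04, adjusted p = 0.0284 in IVO), as was IVM with array weights (adjusted p = 0.00953).

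No difference in total Npm2 RNA was called between any groups, while its polysomal mean ran from 32.5% to 57.5% of the total mean among oocytes. Its total RNA was 967, 1391, 927 and 938 RPKM in IVM, 887, 857, 1110.0 and 915 in COC, 1299, 833, 1347 and 926 in IVO, 924, 847, 887 and 1051 in IMZ and 959, 975.4, 999 and 958 in IVZ. The highest oocyte values were those of IVO replicates 1 and 3, IVM replicate 2 and COC replicate 3, the libraries that stand apart. On polysomes it was 274, 342, 479 and 276 RPKM in IVM, 477, 625, 521 and 542 in COC, 456, 732, 312 and 312 in IVO, 593, 838, 389 and 418 in IMZ and 576, 924, 880.3 and 475 in IVZ. The polysomal mean was 32.5% of the total mean in IVM, 57.5% in COC, 41.1% in IVO, 60.3% in IMZ and 73.4% in IVZ, and it was called lower in all but IVZ (-0.50 ± 0.23, adjusted p = 0.102). The calls in IVO and IMZ were lost with scaling by the median of ratios, and that in IVO without the total RNA libraries that stand apart. The lower polysomal level in IVM than in COC had a log2 fold change of -0.69 ± 0.24 (adjusted p = 0.878), and the difference in the polysomal minus total value was -0.84 ± 0.26 (adjusted p = 0.888). Neither passed over all genes.

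Of the 10 genes, as far as they were tested, Slbp had the lowest polysomal minus total log2 fold change in IVM, COC and IVO. Its total RNA was 352, 423, 359.7 and 352 RPKM in IVM, 382, 366, 489 and 369 in COC, 517, 358, 502 and 379 in IVO, 408, 413, 359 and 508 in IMZ and 566, 418, 518 and 590.2 in IVZ. Its polysomal RNA was 42.6, 77.8, 83.1 and 142 RPKM in IVM, 107, 132, 161 and 148 in COC, 92.9, 115, 111 and 124 in IVO, 108, 162, 113 and 225 in IMZ and 75.6, 166, 254 and 261 in IVZ. In every cell group all polysomal libraries were below all total RNA libraries. The log2 fold change was -2.21 ± 0.32 (adjusted p = 0.000878) in IVM, -1.55 ± 0.15 (adjusted p = 1.59e-05) in COC, -1.97 ± 0.21 (adjusted p = 4.92e-05) in IVO, -1.52 ± 0.24 (adjusted p = 0.00023) in IMZ and -1.60 ± 0.36 (adjusted p = 0.00637) in IVZ. The polysomal mean was 23.3% to 36.1% of the total mean, and the call in all 5 groups was kept in every alternative tried. In total RNA no stage or maturation comparison was called with all libraries kept and weighted alike. The means of 422 ± 62.3 in IMZ and 523 ± 76.0 RPKM in IVZ gave -0.31 ± 0.13 (adjusted p = 0.23). With array weights IMZ was called lower than IVZ (-0.44, adjusted p = 0.0192). Without the 2 IVO libraries that stand apart, Slbp was higher in IVZ than in IVO (0.49, adjusted p = 0.0372). Those 2 libraries held the highest Slbp of IVO, and the opposite IVO pair was not left out, so that call rests on the choice of pair.

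**Figure D3:**
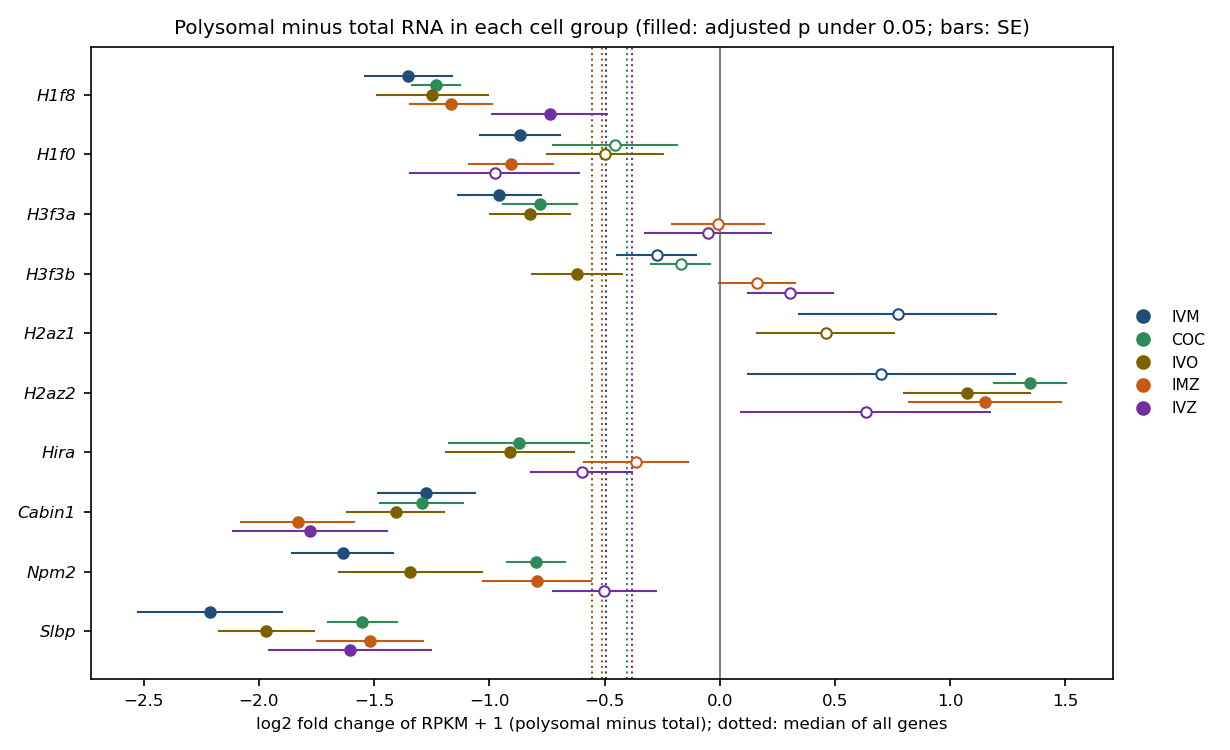
Log2 fold change of RPKM + 1, polysomal minus total RNA, of the 10 genes in each cell group, with SE bars; filled points have an adjusted p under 0.05 and dotted lines are the medians of all genes tested (-0.55 to -0.38). H1f8, Cabin1 and Slbp are filled on the left in all 5 groups, and H2az2 lies to the right in all 5.

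Counted over the genes, polysomal RNA was lower for 6 and higher for 0 of 9 in IVM, lower for 6 and higher for 1 of 9 in COC, lower for 7 and higher for 1 of 10 in IVO, lower for 5 and higher for 1 of 9 in IMZ, and lower for 3 and higher for 0 of 9 in IVZ. Of all genes tested 53.9%, 67.8%, 59.1%, 61.1% and 41% were called in these 5 comparisons, with 38.9%, 44.3%, 45.2%, 46% and 30.1% lower and 14.9%, 23.4%, 13.9%, 15.1% and 10.9% higher. Polysomal and total RNA libraries did not overlap for 6, 7, 7, 7 and 6 of the genes, and for 54.1%, 63.3%, 54.4%, 58.2% and 45.6% of all genes. The share of lower calls depends on scaling, since the median gene lay at -0.38 to -0.55. With scaling by the median of ratios the counts of lower and higher genes were 4 and 1 in IVM, 4 and 1 in COC, 3 and 2 in IVO, 3 and 3 in IMZ, and 2 and 1 in IVZ. Slbp and Cabin1 stayed lower in all 5 groups under that scaling and H1f8 in all but IVZ, H2az2 stayed higher in COC, IVO and IMZ. H2az1 became higher in IVM and IVO, H3f3a in IMZ, and H3f3b in IMZ and IVZ. Npm2 stayed lower in IVM and COC. The percentages of all genes called higher and lower then became 22.9% and 18.7% in IVM, 32% and 30.3% in COC, 25.4% and 23.5% in IVO, 27.2% and 25.1% in IMZ, and 17.8% and 16.8% in IVZ. Between maturation groups of one stage the polysomal minus total difference was not called for any of the 10 genes in the 4 tests made, where 0% of all genes were; at an unadjusted p under 0.05 Npm2 in IVM against COC was the only one (5.31% of all genes).

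**Figure D4:**
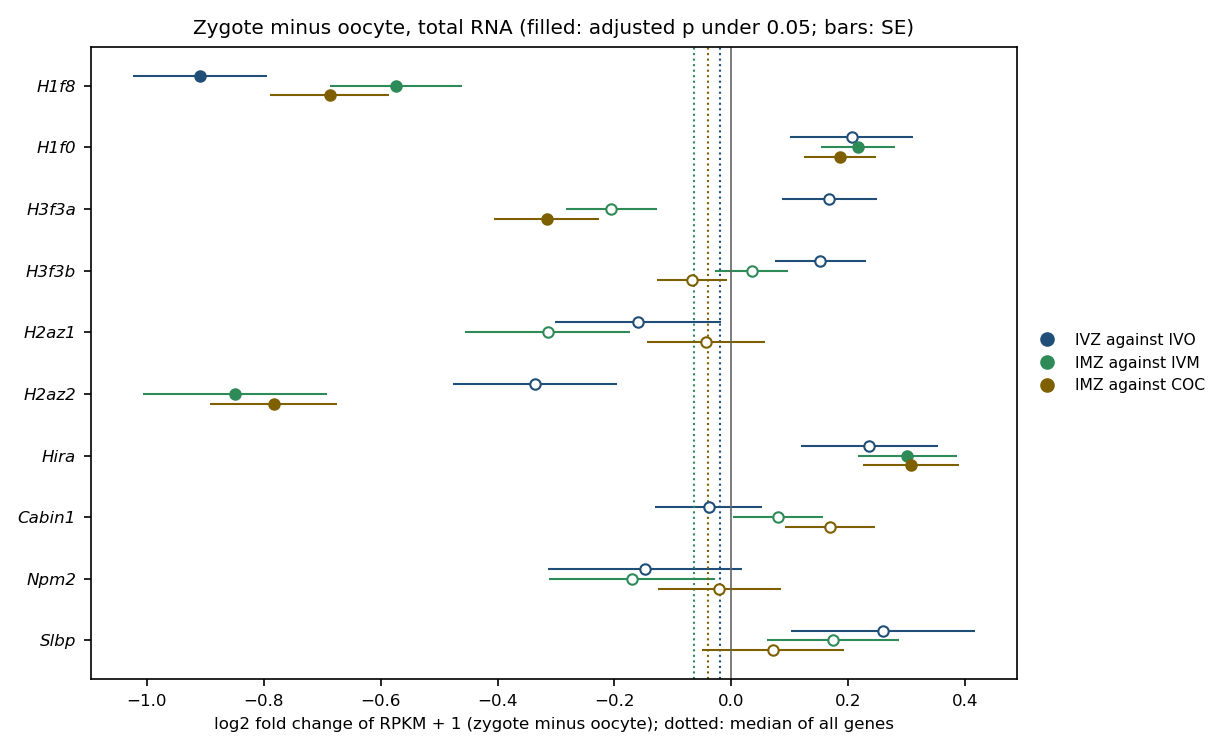
Log2 fold change of RPKM + 1 in total RNA, zygote minus oocyte, of the 10 genes for the 3 stage comparisons, with SE bars; filled points have an adjusted p under 0.05 and dotted lines are the medians of all genes. H1f8 is filled on the left in all 3 comparisons and H2az2 in both in vitro ones, whereas Hira and H1f0 are filled on the right in both in vitro ones.

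Counted over the stage comparisons of total RNA, 1 of 10 genes was called from IVO to IVZ (16.2% of all genes called), 4 of 10 from IVM to IMZ (36%) and 5 of 10 from COC to IMZ (37.2%). The calls were 1 lower in vivo, 2 higher and 2 lower from IVM, and 2 higher and 3 lower from COC, where 2.1%, 8.8% and 11% of all genes were called higher and 14.1%, 27.2% and 26.2% lower. Groups did not overlap for 1, 4 and 4 of the genes, and for 22.2%, 35.9% and 36.5% of all genes. The IMZ libraries serve in both in vitro comparisons, so these 2 are not independent. In polysomal RNA 0 of 9, 0 of 8 and 0 of 9 genes were called, against 0.449%, 0.537% and 3.98% of all genes; 2, 3 and 3 of them had an unadjusted p under 0.05, as had 13%, 11.7% and 19.1% of all genes. The difference between the in vitro and in vivo stage change of total RNA was called for none of the 10 genes (0.0281% of all genes for IVM, 0.187% for COC), with 3 at an unadjusted p under 0.05 in each (8.34% and 9.31% of all genes).

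The other genes of the same pathways were counted from 3 lists. Of 36 other chaperones and exchange factors, most lay lower on polysomes: 17 of 28 tested in IVM, 24 of 34 in COC, 23 of 33 in IVO, 22 of 34 in IMZ and 19 of 34 in IVZ were called lower, with 1, 3, 2, 3 and 1 higher, where 38.9%, 44.3%, 45.2%, 46% and 30.1% of all genes were lower. Their median log2 fold changes were -1.15, -1.26, -1.36, -0.97 and -0.91, beside -0.50, -0.40, -0.55, -0.51 and -0.38 for all genes. With scaling by the median of ratios 12, 23, 19, 16 and 16 were called lower and 3, 4, 2, 5 and 4 higher, with medians still below 0 in all 5 groups (-0.87 to -0.49). Rbbp7, a histone-binding subunit of several chromatin complexes, was 86.6 against 513 RPKM (polysomal against total) in IVO, -2.58 ± 0.22 (adjusted p = 3.92e-05). Nasp, a chaperone of linker histones and H3, was 47.1 against 272 RPKM, -2.46 ± 0.23 (adjusted p = 4.01e-05). The FACT subunit Ssrp1 was 15.1 against 53.5 RPKM, -1.77 ± 0.19 (adjusted p = 4.72e-05), and Supt6 was 27.0 against 87.7 RPKM, -1.68 ± 0.19 (adjusted p = 6.16e-05).

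Among 14 other linker histones and variants, none was called lower on polysomes in any cell group, and 1 of 6, 3 of 8, 3 of 8, 3 of 8 and 0 of 8 were called higher in IVM, COC, IVO, IMZ and IVZ, where 14.9%, 23.4%, 13.9%, 15.1% and 10.9% of all genes were. Their medians were 0.37, 0.24, 0.46, 0.67 and 0.43, and with scaling by the median of ratios 3, 4, 4, 5 and 3 were called higher and still none lower. The linker histone H1f1 had 1525 against 675 RPKM (polysomal against total) in IVO, 1.11 ± 0.32 (adjusted p = 0.0104), and the H2A variant H2aj 36.8 against 16.1 RPKM, 1.16 ± 0.27 (adjusted p = 0.00321). Macroh2a1 had 9.70 against 5.75 RPKM, 0.63 ± 0.23 (adjusted p = 0.0355). H1f1 is a replication-dependent H1 gene whose mRNA usually ends in a stem-loop. The list also names H1f2, H1f3, H1f4 and H1f5, which are of the same kind, and all were kept as linker histones. The counts and medians of this list are therefore not those of replication-independent variants alone.

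The list of other factors for histone mRNA 3′ processing and decay held 18 names, of which Ars2 and Srrt stand for the same gene. Of the factors tested, 4 of 9, 9 of 15, 9 of 15, 9 of 13 and 6 of 13 were called lower on polysomes, with 1, 2, 2, 2 and 2 higher, where 38.9%, 44.3%, 45.2%, 46% and 30.1% of all genes were lower, so that the IVM count is near that of all genes. Their medians were -0.95, -0.95, -0.82, -0.85 and -0.69, beside the same medians of all genes, and with scaling by the median of ratios 2, 7, 6, 3 and 3 were called lower and 1, 2, 4, 2 and 2 higher. Casp8ap2 (FLASH), which with Slbp takes part in cutting the 3′ end of histone mRNAs, was 5.93 against 39.8 RPKM in IVO, -2.60 ± 0.24 (adjusted p = 4.12e-05). Cpsf2 was 5.05 against 14.99 RPKM, -1.41 ± 0.21 (adjusted p = 0.000251), and Npat, the activator of histone genes, 1.21 against 3.70 RPKM, -1.09 ± 0.19 (adjusted p = 0.000602). Lsm10, a subunit of the U7 particle, went the other way in COC, at 113 against 28.0 RPKM, 1.95 ± 0.19 (adjusted p = 1.26e-05).

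**Figure D5:**
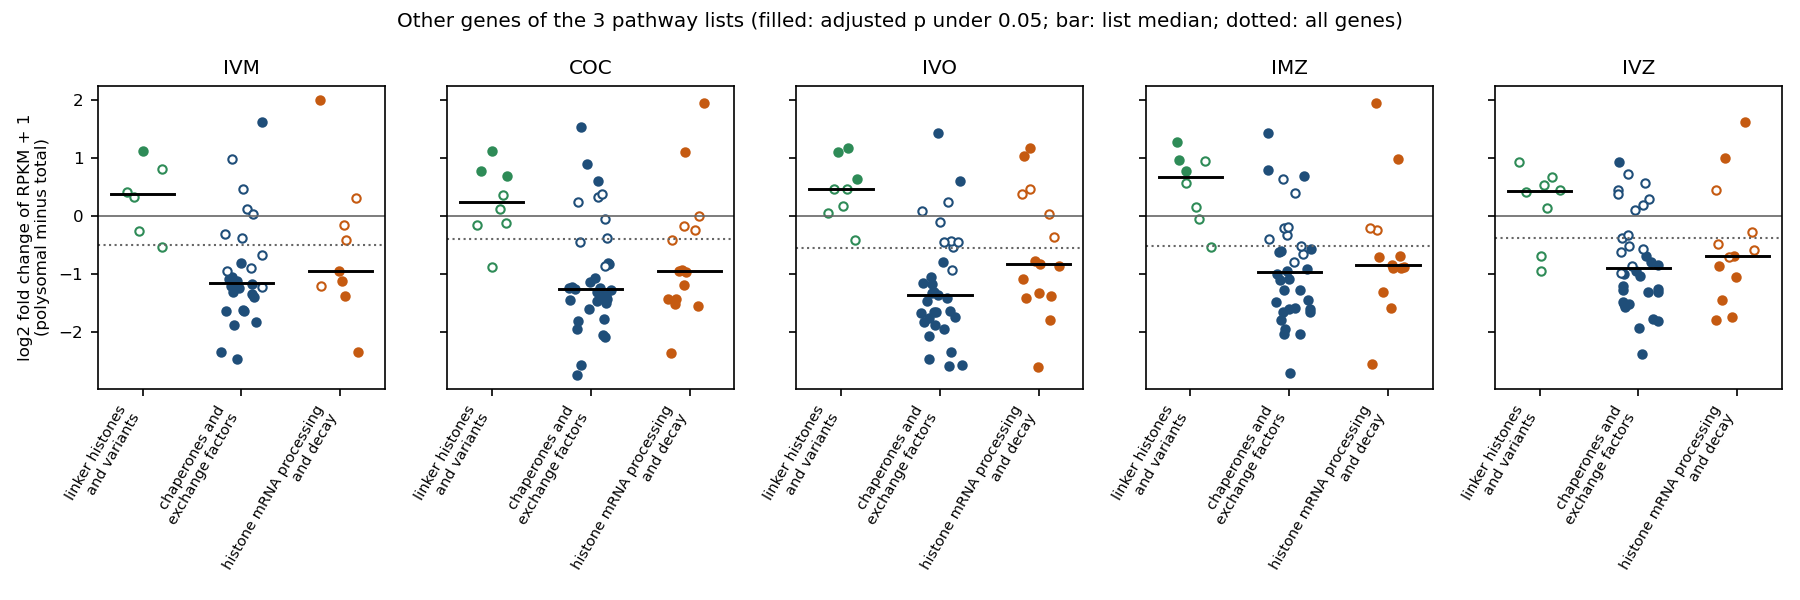
Log2 fold change of RPKM + 1, polysomal minus total RNA, of the other genes of the 3 pathway lists in each cell group; filled points have an adjusted p under 0.05, bars are list medians and dotted lines the medians of all genes. The chaperone medians lie at -1.36 to -0.91 and the medians of linker histones and variants at 0.24 to 0.67.

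From oocyte to zygote the lists were counted in total RNA. Of 36 chaperones 1 rose and 4 fell from IVO to IVZ, 7 and 7 from IVM to IMZ, and 11 and 9 from COC to IMZ; with scaling by the median of ratios these were 3 and 4, 10 and 5, and 12 and 7. Over all genes 2.1%, 8.8% and 11% rose and 14.1%, 27.2% and 26.2% fell. The shares called in either direction were close to those of all genes in vivo and from IVM (5 of 36 beside 16.2%, and 14 of 36 beside 36%). From COC more of the list was called, with 11 up and 9 down of 36, beside 37.2% of all genes. The share that rose was above that of all genes from IVM (7 of 36 beside 8.8%) and from COC (11 of 36 beside 11%). The AAA+ ATPases of the H2A.Z exchange complexes were among those that fell: Ruvbl2 was 33.8 against 51.7 RPKM in IVZ against IVO, -0.60 ± 0.11 (adjusted p = 0.00361), and Ruvbl1 2.42 against 3.70 RPKM, -0.46 ± 0.092 (adjusted p = 0.00588). Tonsl was 5.18 against 9.73 RPKM, -0.79 ± 0.087 (adjusted p = 0.00015), and the CAF-1 subunit Chaf1b 3.38 against 4.64 RPKM, -0.37 ± 0.10 (adjusted p = 0.0271). Ubn2, of the ubinuclein partners of HIRA, rose from COC to IMZ (11.1 against 7.34 RPKM in IMZ against COC, 0.54 ± 0.079, adjusted p = 0.000373). Of 10 linker histones and variants tested 1, 3 and 3 fell and none rose (1, 3 and 2 fell and 1, 1 and 0 rose with that scaling). Macroh2a2 had 0.607 against 1.499 RPKM in IVZ against IVO, -0.64 ± 0.074 (adjusted p = 0.000222). Of 16 processing factors tested 0, 1 and 4 rose and 1, 6 and 4 fell (2, 3 and 5 rose and 1, 5 and 4 fell with that scaling), led in each by Lsm10, 12.1 against 32.3 RPKM in IVZ against IVO, -1.34 ± 0.14 (adjusted p = 0.000116). Between IMZ and IVZ the only non-member called was Cpsf3, an endonuclease of 3′ end formation, 15.7 against 22.1 RPKM, -0.47 ± 0.10 (adjusted p = 0.0396). Between IVM and IVO the ones called were Ruvbl1 (5.38 against 3.70 RPKM, 0.44 ± 0.067, adjusted p = 0.0337) and Ncbp1, a subunit of the cap-binding complex (1.91 against 1.16 RPKM, 0.43 ± 0.065, adjusted p = 0.0337), both higher in IVM. There 56 of all genes (0.509%) were called. That number was 11 with scaling by the median of ratios, 1 with a replicate block and 562 without the libraries that stand apart. Ruvbl1 and Ncbp1 were not followed under these alternatives.

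Over the 20 total RNA libraries, the named genes whose log2(RPKM + 1) followed H1f8 most closely among 9244 genes were Unk (Pearson r = 0.984) and Tada2a (0.98). For Npm2 they were H3c15 (0.972) and Zfp830 (0.964), for Slbp Syf2 (0.964) and Mis18a (0.954), and for H3f3b Fbxo8 (0.869) and Ccnb1 (0.867). These values describe likeness over libraries that share groups and the component on which 4 oocyte libraries stand apart.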

How the data were processed

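Total and polysomal RNA of mouse oocytes and zygotes was sequenced from strand-marking SMARTer Pico Input libraries, per the labels' protocols. The submitters' processing notes name DRAGEN and GRCm39, without a version or role for the tool; the counting, its strand setting, the annotation and the authors' test are unknown here. The 8 deposited tables hold RPKM per library, which the authors had normalized to gene length and depth, together with the authors' deposited log2 fold change and p-value per gene, used here only to count calls. Each table lists genes of at least 0.2 RPKM in all of its 8 libraries. Libraries that stand in 2 tables had identical values (190488 compared).

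RPKM are not counts and were tested as log2(RPKM + 1) with limma 3.58.1 in R 4.3.3 (lmFit, eBayes with trend), with Benjamini-Hochberg adjustment over all genes tested and a call under 0.05. Each comparison was fitted on its own libraries without covariates. Comparisons of stage and fraction, for which no table exists, joined the genes listed for both groups. Depth of the total RNA libraries was recovered from the steps between the lowest RPKM values of all listed genes, using lengths from GENCODE M21. At those depths 1071 genes gave whole reads within a tolerance of 0.1 reads. The lowest values of these genes then gave the depth of the polysomal libraries. Depths refined on the same 1071 genes gave whole reads for H1f8, H1f0, H2az2 and Npm2, and not for the other 6 genes. Fits were tested on simulated data. Alternatives were a mean of at least 1 RPKM as filter, a smaller pseudocount (0.1), scaling by the median of ratios, a replicate block, array weights (limma weights per library), leaving out each library, and leaving out the polysomal libraries the authors excluded; leaving out the libraries that stand apart and the tests of stage differences were added after seeing the data. The members and gene lists were chosen with earlier results of these data known. Named besides the 10 genes are up to 4 of each list with the smallest p in a comparison, and for 4 genes the 2 with the highest correlation among genes of mean RPKM of at least 1. Ratios within a library used RPKM without a pseudocount. Proteins were not used here.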

Additional observations from a re-analysis of the deposited data

Results flagged for a closer look

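Of 96 sets of 4 libraries examined, 9 held a library whose gap to the nearest other, divided by the whole range of the set, was above Dixon's 95% critical value; chance gives about 1 in 20. In total RNA of COC, replicate 3 was the highest for H3f3a (0.845753, at 100.1 RPKM), H3f3b (0.978381, at 177 RPKM), H2az2 (0.859892, at 16.4 RPKM) and Slbp (0.866248, at 489 RPKM). In total RNA of IVM, replicate 2 was the highest for Slbp (0.896827, at 423 RPKM) and Npm2 (0.913051, at 1391 RPKM). COC replicate 3 and IVM replicate 2 are among the 4 total RNA oocyte libraries that stand apart over all genes. In polysomal RNA, IVO replicate 1 was the lowest for H1f8 (0.851531, at 471 RPKM) and Cabin1 (0.873175, at 7.10 RPKM), and IMZ replicate 2 was the lowest for H1f8 (0.834222, at 371 RPKM).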

How the results depend on the processing

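The count of the 10 genes called changed by more than 1.5 times in some comparisons. For IMZ against IVZ in total RNA it went from 2 to 1 with the replicate block (H2az2 then at adjusted p = 0.0519), to 6 with array weights and to 0 to 2 with 1 library left out. With array weights it also went from 1 to 2 for IVZ against IVO in total RNA, and from 0 to 1 and from 0 to 2 for IVZ_P against IVO_P and IMZ_P against COC_P, the latter 0 to 1 with 1 library left out (H2az2, without IMZ_P replicate 4). Over all genes, too, array weights raised the calls, for IMZ_T against IVZ_T from 180 to 1575 (29 to 424 with 1 library left out). For IVZ_T against IVO_T the rise was from 1728 to 2321, for IVZ_P against IVO_P from 27 to 222, and for IMZ_P against COC_P from 238 to 774. For IMZ against COC in total RNA the count of the 10 genes went from 5 to 2 with the replicate block and to 3 to 5 with 1 library left out. The block lost the calls of H3f3a (adjusted p = 0.0563), Hira (0.0528) and H1f0 (0.0828) there, of H1f0 for IMZ against IVM in total RNA (0.066) and of H3f3b for IVO_P against IVO_T (0.0546), and it gained H1f0 for IVZ_P against IVZ_T (0.0416). Over all genes it took the calls for IMZ_T against IVZ_T from 180 to 67, and those for IVM_T against IVO_T from 56 to 1. Without the total RNA libraries that stand apart the count of the 10 genes went from 0 to 1 for IVM_T against IVO_T, from 1 to 3 for IVZ_T against IVO_T and from 8 to 4 for IVO_P against IVO_T, which had 5 with scaling by the median of ratios. Over all genes the calls without those libraries went from 56 to 562, from 1728 to 2329 and from 4532 to 2924 in the same order. For IVZ_P against IVZ_T the count of the 10 genes went from 3 to 5 without the library the authors excluded, and ran from 2 to 5 with 1 library left out. Over all genes the calls there went from 2596 to 3205 without the excluded library. Scaling by the median of ratios turned the sign of the polysomal minus total difference of H1f0 in IVO (0.13, adjusted p = 0.676), H3f3b in IVO (0.026, adjusted p = 0.918) and H3f3a in IMZ (0.55, adjusted p = 0.0256); the last ran from -0.19 to 0.13 with 1 library left out. The cause of these changes was not tested, except that the scaling takes out the shift of the median gene.

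The falls of H1f8 in total RNA from oocyte to zygote, the falls of H2az2 to IMZ, the lower polysomal levels of Slbp and Cabin1 in 5 cell groups, and the higher polysomal H2az2 in COC, IVO and IMZ remained called in every alternative. No consistent pairing by replicate number was seen: in 0 of 19 comparisons did all 4 pairs have a correlation of deviations over 0.1 (range -0.658 to 0.655), and the labels do not say whether the numbers mark a shared source. Depth limits the polysomal values: H2az2 rests on 20 to 2453 reads per polysomal library and H1f0 on as few as 57, and reads could not be recovered for Hira and H2az1.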
